A study of Mus musculus with 18 samples.

Results

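Myoc, Gsn, Wfdc2, Fxyd3 and Tmem213 are 5 genes of lipochondrocytes, the fat-filled cartilage cells of the mouse outer ear, that were picked for higher levels late in postnatal growth. They are 5 of the 46983 genes listed in a table of FPKM, read fragments scaled to gene length and to library size, a unit that allows levels to be compared between genes. All 5 are among the 13815 genes that reached 1 FPKM in at least 3 libraries. Tmem213 did so only in the 6 libraries of the P21 and P33 groups, where it is high, and the other members did so in at least 15 libraries. The genes were chosen by their FPKM in these same libraries, for levels at P21 or P33 above those at P13. For that reason every member difference that involves P13, P21 or P33 is given below as a description with no test. Tests on the members are given only among the P8, P10 and adipocyte libraries. The choice itself fixes that the members were higher late, so the label of late rise is not a result. Fxyd3 was already high at P13 and was no higher at P33 than at P21.

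Lipochondrocytes make a cartilage matrix like other chondrocytes and also keep a large lipid droplet, as a white fat cell does. Myoc encodes myocilin, a secreted protein with an olfactomedin domain, known from the outflow tissue of the eye, where glucocorticoids induce it. Gsn encodes gelsolin, which severs and caps actin filaments when calcium rises and has a cytoplasmic and a secreted form. Wfdc2 encodes a small secreted protein of the whey acidic protein (WAP) domain family and Fxyd3 a small membrane protein that binds the sodium pump, Na,K-ATPase. Both are best known from epithelia. Tmem213 encodes a membrane protein whose RNA is known from the acid-secreting cells of the kidney.

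The data were 18 RNA-seq libraries in 6 groups of 3, all labelled with the genotype Wnt1-Cre2;TdTomato on the C57BL/6 background, in which Cre under the Wnt1 promoter marks neural crest descendants with a red fluorescent protein. The ear cartilage groups were postnatal days 8, 10, 13, 21 and 33 (P8 to P33), and the comparison group was inguinal fat cells at day 33. At P8, P10 and P13 the digested cartilage cells were sorted for high TdTomato signal, whereas at P21 and P33, and for the fat cells, the floating fraction after centrifugation was taken without a sort. The step from P13 to P21 therefore changes both age and isolation, which cannot be told apart, while the step from P21 to P33 does not change the isolation. Nothing in the labels says that the replicates came from separate animals, so the p-values measure only the spread between these samples.

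The libraries held between 12461965 and 27640142 reads, of which 73.19 to 84.44% aligned, and their FPKM values summed to between 880622 and 1245105. Between 9254 and 10558 genes reached 1 FPKM in the sorted libraries and 10759 to 11610 in the P21 and P33 libraries. The labelled cell types matched their defining genes. The summed FPKM of 13 chondrocyte genes was 22500 to 35500 in the ear libraries and 1.32 to 2.27 in the adipocytes, and that of 12 adipocyte genes was 10.0 to 46.0 against 119000 to 126000. No pair of libraries held identical values.

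Myoc lies on the plus strand of chromosome 1 (162639155 to 162649693, GRCm38, the build also called mm10), Gsn on the plus strand of chromosome 2 (35256380 to 35307892), Wfdc2 on the same strand farther along (164562413 to 164568510), Fxyd3 on the minus strand of chromosome 7 (31068172 to 31076704) and Tmem213 on the plus strand of chromosome 6 (38109255 to 38115809), all as protein-coding genes in GENCODE M21. The sequence just before the first RefSeq start of each gene is shown because the genes were high in the same libraries, so that a reader can compare what lies at their starts. Bases that GENCODE assigns to an exon of the gene were left out. Capitals mark matches to TATAAA and to the GC box GGGCGG on either strand, and RefSeq build GRCm38.p6 is the source.
Myoc, chr1:162638900-162639149, plus strand: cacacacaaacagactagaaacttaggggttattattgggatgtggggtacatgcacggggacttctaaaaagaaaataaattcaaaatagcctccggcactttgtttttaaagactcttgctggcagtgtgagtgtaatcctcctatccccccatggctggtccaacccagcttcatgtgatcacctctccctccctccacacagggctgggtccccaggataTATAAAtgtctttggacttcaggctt
Gsn, chr2:35256109-35256358, plus strand: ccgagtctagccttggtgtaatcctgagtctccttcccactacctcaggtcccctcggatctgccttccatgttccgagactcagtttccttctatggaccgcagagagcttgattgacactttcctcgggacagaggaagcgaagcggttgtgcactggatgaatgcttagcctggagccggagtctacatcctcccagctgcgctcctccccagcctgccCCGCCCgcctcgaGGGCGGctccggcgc
Fxyd3, chr7:31076705-31076947, minus strand: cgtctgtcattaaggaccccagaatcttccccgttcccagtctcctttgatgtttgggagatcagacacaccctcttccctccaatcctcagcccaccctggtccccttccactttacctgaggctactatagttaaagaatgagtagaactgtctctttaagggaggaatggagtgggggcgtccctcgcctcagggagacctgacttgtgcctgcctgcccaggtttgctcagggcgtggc
Tmem213, chr6:38109103-38109254, plus strand: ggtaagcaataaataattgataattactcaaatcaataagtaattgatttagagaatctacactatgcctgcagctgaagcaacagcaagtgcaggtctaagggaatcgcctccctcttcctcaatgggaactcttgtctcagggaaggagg
Wfdc2 is not printed, since 146 of the 250 bases before its first start fall in annotated exons.

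The starts shared little of what was searched. In the 250 bases before each start, both strands were scanned for TATAAA, for the steroid receptor half-site TGTTCT, for the SOX core ACAAT, for the AP-1 site TGANTCA, for GGGCGG and for the E-box CANNTG. Myoc alone had TATAAA, beginning at base -26, in a motif held by 12.4% of the 32851 promoter windows of the same length. GGGCGG was present in all 3 Gsn windows and in both Wfdc2 windows, which lie 1 base apart, against 32.7% of all windows. The SOX core was found only before Wfdc2, at -134 of its first start, against 27.7% of windows. The scan also took in exon bases that the printed sequences leave out. This SOX core and the Wfdc2 GGGCGG both lie in annotated exon bases. None of the windows held TGTTCT, which 16.1% of all windows hold, or TGANTCA, which 6.75% hold. CANNTG was present before every gene except Fxyd3, which had none of the 6 motifs, against 66.2% of windows. GC content ran from 46.8% for Myoc to 64.8% for the first Wfdc2 window. A match is only a run of letters, and the table does not tell which of the Gsn starts was used.

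Wfdc2 showed the widest step of the 5 genes. Its level was 7.54, 7.41 and 8.82 FPKM at P8, 5.86, 6.28 and 6.95 at P10, and 8.61, 7.84 and 8.5 at P13. At P21 it was 523, 1103 and 1479 FPKM, and at P33 1062, 1229 and 3511. The sorted libraries all lay below 9 FPKM, every P21 and P33 library lay above 500, and the P21 and P33 ranges overlapped. The mean at P21 was 124 times that at P13, with a difference of 6.67 on the log2(FPKM + 1) scale (SE 0.38), the 5th highest of the 13815 genes. From P21 to P33 the difference was 0.81 (SE 0.38), so that 89.2% of the log2 difference from P13 to P33 lay in the earlier step. Without the third P33 library the P21 to P33 difference was 0.27. In bulk RNA, more cells that make a transcript and more of it per cell cannot be told apart.

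Myoc was higher at both steps. It measured 9.52, 10.7 and 10.9 FPKM at P8, 4.13, 3.75 and 5.16 at P10, and 5.99, 7.29 and 7.12 at P13. At P21 it was 105, 141 and 252 FPKM and at P33 1158, 1574 and 1475. No neighbouring groups overlapped, and the order from high to low was P33, P21, P8, P13, P10 and adipocytes. The P21 mean was 24.4 times the P13 mean (log2 difference 4.33, SE 0.24) and the P33 mean 8.45 times the P21 mean (3.16, SE 0.24), so the later step held 42.2% of the log2 difference from P13 to P33.

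Gsn was the most abundant of the 5 genes at P33. Its level was 80.4, 98.3 and 86.3 FPKM at P8, 101, 88.6 and 120 at P10, and 148, 163 and 184 at P13. It was 2035, 3083 and 2736 FPKM at P21 and 9565, 11981 and 9797 at P33. P8 and P10 overlapped and each later stage lay wholly above the stage before it. Of all FPKM in a library, Gsn took 0.00825 to 0.0189% in the sorted cells and 0.768 to 1.0% at P33, where it ranked between 16th and 20th of all genes. Its P21 mean was 15.9 times the P13 mean (log2 difference 3.96, SE 0.16) and its P33 mean 3.99 times the P21 mean (2.01, SE 0.16).

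Tmem213, the rarest of the 5, had most of its difference in the later step. It was at or below 0.56 FPKM in every sorted library and listed at 0 in the first and second P10 libraries. At P21 it was 2.16, 1.22 and 2.75 FPKM and at P33 15.2, 13.2 and 12.4. The P33 libraries lay above all P21 libraries, which lay above all P13 libraries. On the log2 scale the step from P13 to P21 was 1.08 and that from P21 to P33 2.29 (SE 0.18 each), which puts 67.9% of the difference from P13 to P33 in the later step. Adding 1 FPKM compresses differences at levels this low, and with 0.1 FPKM added instead the steps were 2.03 and 2.74.

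Fxyd3 had its main step before P21. Its level was 566, 622 and 359 FPKM at P8, 462, 569 and 503 at P10, and 2252, 1992 and 2111 at P13. At P21 it was 4071, 4393 and 3786 FPKM and at P33 4187, 4722 and 2659. P13 stood clear above P8 and P10 within the sorted libraries, P21 stood clear above P13, and P33 overlapped P21. The P13 mean was 4.14 times the P10 mean (log2 difference 2.05, SE 0.21), the P21 mean 1.93 times the P13 mean (0.95), and the P33 difference from P21 was -0.12, or 0.13 without the third P33 library. The step from P13 to P21 was 0.51 with median-of-ratios scaling, which sets the median gene level across libraries.

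**Figure D1:**
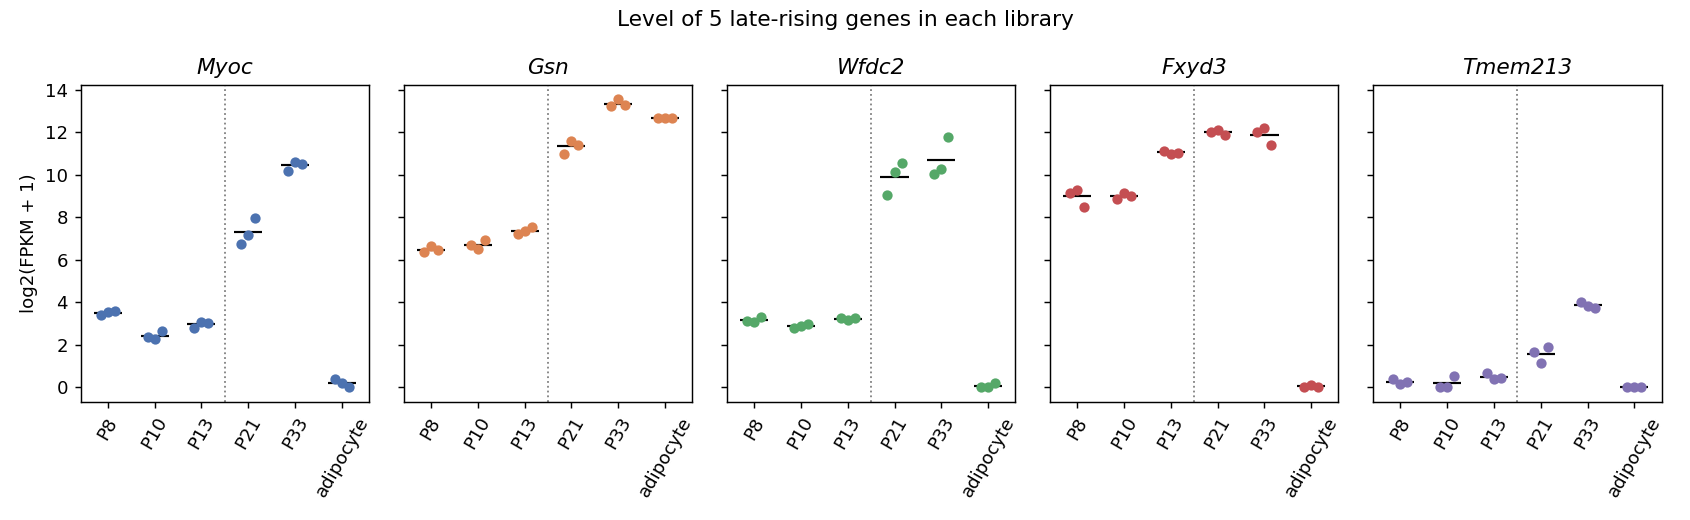
Levels of the 5 genes as log2(FPKM + 1), with a point for each library and a line at each group mean; the dotted line separates the sorted stages from the floating fractions. Wfdc2 is below 9 FPKM in all 9 sorted libraries and above 500 FPKM at P21 and P33, Fxyd3 is already 2120 FPKM on average at P13, and only Gsn is abundant in adipocytes.

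The 5 genes thus split by step. From P10 to P13, Myoc, Gsn, Wfdc2 and Fxyd3 were higher with no overlap, as were 31.4% of all genes tested. All 5 were higher at P21 than at P13 with no overlap, as were 44.1% of all genes tested, and Myoc, Gsn and Tmem213 were also higher at P33 than at P21 with no overlap, as were 8.2% of all genes. The pattern of both steps without overlap was shown by 3 of the 5 and by 4.47% of all genes. These shares are printed beside counts that the choice of genes fixes, and nothing is read from them. At the later step Myoc ranked 18th, Tmem213 40th, Gsn 52nd, Wfdc2 364th and Fxyd3 8749th of 13815. Among the 3837 genes with a P33 mean of at least 10 FPKM, Gsn ranked 42nd, with Apod, a lipid-carrying secreted protein, next below it at 1.99, and Wfdc2 stood between Ggact and H2-Q7, all at 0.81.

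**Figure D2:**
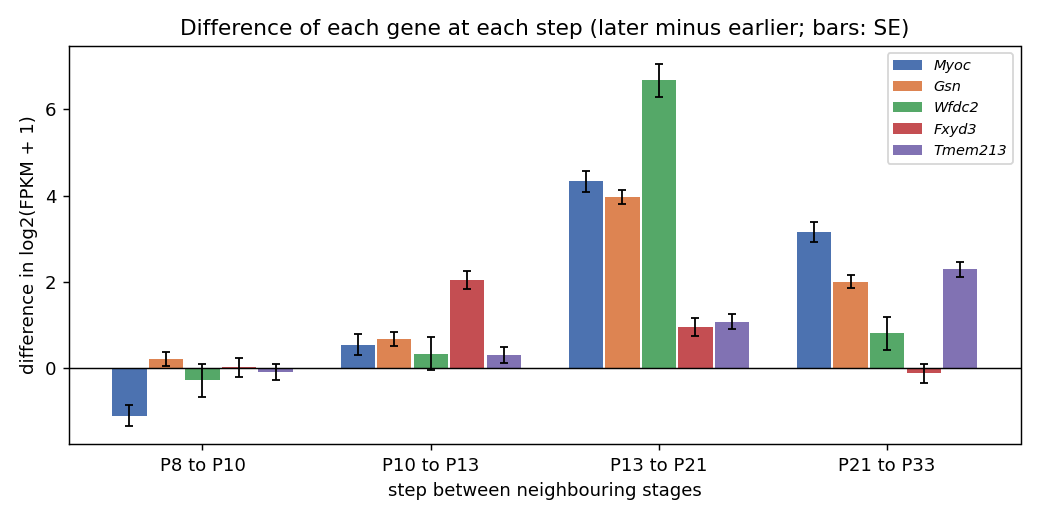
Difference between neighbouring stages, later minus earlier, on the log2(FPKM + 1) scale; each bar is a gene and each error bar the SE from the fit. Wfdc2 is the tallest from P13 to P21 (6.67), Myoc the tallest from P21 to P33 (3.16), and Fxyd3 has its tallest bar from P10 to P13 (2.05).

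Between P8 and P10, stages that the late rise does not involve, Myoc was the only member that passed the test. It fell by 1.10 on the log2 scale (SE 0.24), from 10.4 ± 0.750 to 4.35 ± 0.730 FPKM (SD, n = 3), with a Benjamini-Hochberg adjusted p of 1.12e-02 in limma. Of the 13815 genes 9.14% were called lower at P10 (1263) and 1.9% higher (262), and with median-of-ratios scaling the split was 131 lower and 505 higher. The median gene differed by -0.19 as deposited and by 0.00 with that scaling, under which Myoc differed by -0.83 with an adjusted p of 5.28e-02. With 0.1 FPKM added it was -1.25 with an adjusted p of 5.20e-02, so the call did not hold under either. Gsn (0.22, adjusted p = 4.04e-01), Wfdc2 (-0.28, 6.91e-01) and Fxyd3 (0.02, 9.80e-01) did not pass. The P10 libraries of Wfdc2 (5.86 to 6.95 FPKM) lay below those of P8 (7.41 to 8.82) without overlap, as did 29.4% of all genes. Tmem213 was at 0 to 0.45 FPKM at P8, at P10 and in adipocytes and passed the filter through P21 and P33 alone, so no test of it is read among these groups.

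Against fat cells, Myoc, Wfdc2 and Fxyd3 were higher in the P8 and P10 lipochondrocytes and Gsn was lower. Age and isolation differ in these contrasts as well as the cell type, and these cannot be told apart. Fxyd3 was 0, 0.08 and 0 FPKM in the adipocytes, Wfdc2 0, 0 and 0.13, Myoc 0.32, 0.16 and 0, and Tmem213 was listed at 0 in all 3. Gsn stood at 6614, 6461 and 6614 FPKM there, so adipocytes had a high level of gelsolin RNA and next to none of the other members. At P8 the log2 differences from adipocytes were 8.94 for Fxyd3 (SE 0.21, adjusted p = 7.22e-15), 3.30 for Myoc (SE 0.24, 5.37e-09) and 3.10 for Wfdc2 (SE 0.38, 2.71e-06). Gsn was lower by -6.20 at P8 (SE 0.16, 2.48e-14), which puts its P8 mean at 0.0135 of the adipocyte mean.

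At P10 the same genes passed in the same directions. The differences were 8.96 for Fxyd3 (adjusted p = 6.99e-15), 2.21 for Myoc (5.38e-07), 2.82 for Wfdc2 (6.47e-06) and -5.99 for Gsn (3.69e-14). Of all genes 19.3% were called higher and 52.2% lower at P8 (2668 and 7211), and 16.8% and 58.9% at P10 (2326 and 8137). With median-of-ratios scaling these splits were 4356 against 4885 at P8 and 4508 against 4993 at P10. The size of a difference against a gene near 0 depends on the amount added before the log.

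Gsn lay below the fat cell level up to P21 and above it at P33. Its mean was 0.0251 of the adipocyte mean at P13 and 0.399 of it at P21, and at P33 it was 1.59 times the adipocyte mean, with all 3 P33 libraries above all 3 adipocyte libraries, as for 24.6% of all genes. On the log2 scale the P33 difference was 0.66, or 1.06 with median-of-ratios scaling and 0.49 with every library scaled to the same sum. Gsn was among the 12 genes of 13815, or 0.0869%, that lay wholly below adipocytes at P21 and wholly above them at P33. The later levels of Gsn chose it, so nothing is read from this share. The other members were at 13.6 FPKM (Tmem213) to 3860 FPKM (Fxyd3) on average at P33, against 0.16 FPKM or less in fat cells.

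The genes nearest to each member in pattern were named by Pearson r on log2(FPKM + 1) over the 18 libraries, among 5402 genes. The points share libraries and isolation groups, so r describes these libraries only. Nearest to Myoc were Ifitm10 (0.984), Apod (0.979) and Bicc1, which encodes an RNA-binding protein (0.977). Apod averaged 6.15 FPKM at P13, 139 at P21 and 559 at P33. For Wfdc2 they were Itgbl1 (0.991), Angptl7 (0.99) and Ppap2a, which encodes a lipid phosphate phosphatase (0.988). Angptl7, a secreted protein known from the eye's outflow tissue as myocilin is, averaged 2.60 FPKM at P13, 1020 at P21 and 2720 at P33.

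Gsn was high in the 3 adipocyte libraries, which enter r, so its ranking favours genes that fat cells also express. Nearest to Gsn were Gpx1, a glutathione peroxidase (0.980), Abhd14b (0.978) and Fth1, the ferritin heavy chain (0.977). Over the 15 lipochondrocyte libraries alone these r were 0.990, 0.973 and 0.976. Gpx1 averaged 3050 FPKM at P33 and 1610 in adipocytes, and Fth1 6190 and 4770. Nearest to Fxyd3 were the carboxypeptidase gene Cpe (0.997), the Wnt inhibitor gene Wif1 (0.997) and Col8a1, a collagen VIII chain (0.994). These r were 0.969, 0.975 and 0.937 over the lipochondrocyte libraries alone. Wif1 averaged 431 FPKM at P10, 1400 at P13, 4330 at P21 and 2660 at P33. Nearest to Tmem213 were Grem1, a secreted BMP antagonist (0.973), the protease inhibitor gene Timp3 (0.947) and the water channel gene Aqp5 (0.946). Grem1 averaged 2.41 FPKM at P21 and 32.1 at P33.

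Among the members, r over the 15 lipochondrocyte libraries was 0.98 for Myoc with Gsn, 0.96 for Myoc with Wfdc2 and 0.98 for Gsn with Wfdc2. Fxyd3 with the others gave 0.71 to 0.84. With the adipocytes included, Gsn with Fxyd3 gave -0.23. The members were chosen for being higher late in these same libraries, so nothing is read from these r.

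Related genes came from lists of each member's family or pathway, and their tests ran over all genes. The background for P21 against P13 was 36.0% of genes called higher and 7.04% lower (4977 and 972) with a median difference of 0.29. With median-of-ratios scaling the split was 2263 and 2155 and the median 0.02, and with libraries scaled to the same sum it was 3193 and 1317 and 0.15. For P33 against P21 it was 2.87% higher and 7.17% lower (397 and 991; 259 and 1323 with the same sum), with a median of -0.02. The 397 were 659 without the third P33 library and 241 without the second P21 library. With only the P21 and P33 libraries modelled 126 genes were called at this step in place of 1388, and of the related genes named below as called there, Atp6v1g1 and Angptl4 alone passed. For P33 against adipocytes it was 24.0% higher and 44.5% lower (3315 and 6151; 4340 and 4708 with median-of-ratios scaling), with a median of -0.28. The P21 libraries enter both steps and the P33 libraries enter the last 2 comparisons.

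Gelsolin's relatives were mixed from P13 to P21, and nothing about the family is read from the counts. Of 17 tested genes of the gelsolin family and other actin binders, 6 rose from P13 to P21 and 1 fell, beside 36.0% and 7.04% of all genes, with a median of 0.36, and with median-of-ratios scaling 3 rose and 4 fell. None fell without the first P13, first P21 or second P21 library, and 2 fell without the third P21 library. Svil, which encodes the membrane-linked gelsolin relative supervillin, went from 1.23 ± 0.248 to 6.14 ± 0.564 FPKM (log2 difference 1.68, SE 0.14, adjusted p = 2.98e-07). Vill, a villin relative, went from 3.58 to 10.3 FPKM (1.30, adjusted p = 1.81e-05). Tmsb10, an actin monomer binder, rose by 1.02 (adjusted p = 1.83e-02), a call that ended with median-of-ratios scaling (0.59), with same-sum scaling and without the first or the third P13 library or the third P21 library.

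From P21 to P33, where the Gsn mean was 3.99 times as high, none of the 17 rose by the limma test (3 at an unadjusted p below 0.05), beside 2.87% of all genes. Beside 7.17% of all genes, only Dstn, an actin depolymerizing factor, fell, from 118 to 90.7 FPKM (-0.38, adjusted p = 4.29e-02). That call was lost in 8 of 12 alternatives, among them each of the 6 that left out a P21 or P33 library, and without the second P33 library 1 other gene rose and 2 others fell. Against adipocytes 6 were higher at P33 and 8 lower, beside 24.0% and 44.5% of all genes. With median-of-ratios scaling 8 were higher and 4 lower, and without the first P33 library 5 were lower. Scin, which encodes the gelsolin relative adseverin, was 15.5 ± 5.01 FPKM at P33 and 0.05 ± 0.0557 in adipocytes (3.93, adjusted p = 3.96e-10), while Cfl2, the muscle cofilin, was lower at P33 (-1.85, adjusted p = 6.53e-07) and Tmsb10 higher (1.82, adjusted p = 1.19e-04).

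Actin itself went the other way. Of 5 tested actin genes 3 fell from P13 to P21, beside 7.04% of all genes. Actg1 fell from 3390 ± 411 to 984 ± 57.3 FPKM (-1.78, adjusted p = 1.95e-07) and Actb from 8280 to 3950 (-1.05, adjusted p = 7.11e-04). The cardiac gene Actc1 fell from 3.46 to 0.300 (-1.77, adjusted p = 1.81e-07). The skeletal muscle actin Acta1 rose, from 18.6 ± 6.71 to 162 ± 123 FPKM (2.71, adjusted p = 4.01e-03), in libraries whose summed FPKM of the 12 other skeletal muscle genes of the list was 180.0, 50.9 and 307 at P21 against 13.5 to 14.1 at P13. The part of muscle RNA in that result was not tested. None of the 5 passed in limma from P21 to P33 (1 higher and 1 lower at an unadjusted p below 0.05), beside 2.87% of all genes higher and 7.17% lower. Without the third P21 library 1 rose, and without the second P21 or the third P33 library 1 fell. At P33 Actb (1.38, adjusted p = 1.61e-05) and Actg1 (0.56, adjusted p = 2.58e-03) were higher than in adipocytes.

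In the family of Fxyd3 and its partner pump, 4 of 13 tested genes rose from P13 to P21, beside 36.0% of all genes. None fell, nor did any at an unadjusted p below 0.05 in limma (0 genes), beside 7.04% of all genes, and the median was 0.15. With median-of-ratios scaling 2 rose and 1 fell. Fxyd6, another pump regulator of the family, went from 52.9 ± 3.48 to 397 ± 132 FPKM (2.83, SE 0.20, adjusted p = 6.24e-08) and was 592 ± 102 at P33. The beta subunit gene Atp1b2 rose by 0.77 (adjusted p = 1.19e-02; 0.36 and not called with median-of-ratios scaling, nor with same-sum scaling, the 2 groups alone, or without the second P13 or first P21 library) and then fell from 22.9 ± 7.61 FPKM at P21 to 5.35 ± 0.710 at P33 (-1.87, adjusted p = 7.95e-05). From P21 to P33 Atp1b1 rose by 0.91 (adjusted p = 4.69e-04) and Fxyd7 by 0.74 (adjusted p = 2.34e-02), the latter lost without the third library of either stage, with 0.1 FPKM added and with same-sum scaling. Without the first P21 library 2 of the 13 fell instead of 1. Of all genes 2.87% rose and 7.17% fell at this step.

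Against adipocytes 4 of the 13 were higher at P33 and 6 lower (6 and 5 with median-of-ratios scaling), beside 24.0% and 44.5% of all genes. Fxyd6 was 0.800 FPKM in adipocytes (8.37, adjusted p = 1.21e-14), a contrast of the kind Fxyd3 shows.

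Of 21 listed genes of the WAP domain family of Wfdc2, 7 reached 1 FPKM in at least 3 libraries and were tested. Of these 3 rose and 2 fell from P13 to P21, beside 36.0% and 7.04% of all genes, with a median of 0.43. Slpi, a protease inhibitor of mucosal surfaces, went from 0.410 ± 0.168 to 16.2 ± 7.25 FPKM (3.52, adjusted p = 1.93e-06), Wfdc1 from 1.26 to 12.9 FPKM (2.55, adjusted p = 8.64e-06), and Wfdc18 fell from 2.30 to 0.200 FPKM (-1.46, adjusted p = 2.45e-05). Slpi and Wfdc1 averaged 16.2 and 13.0 FPKM at P33, far below Wfdc2. From P21 to P33 only Wfdc12 passed, lower by -0.59 (adjusted p = 4.07e-02), a call lost with median-of-ratios scaling and without the first or the third P21 library or the first or second P33 library. None rose in limma (1 at an unadjusted p below 0.05), and without the second P21 or the second P33 library 1 did. Of all genes 2.87% rose and 7.17% fell at this step. Against adipocytes 2 were higher and 3 lower at P33, beside 24.0% and 44.5% of all genes. Wfdc1 was among the higher (2.85, adjusted p = 4.36e-07), and Wfdc21 (-4.88, adjusted p = 1.78e-14) and Wfdc17 (-3.82, adjusted p = 3.59e-10) were among the lower.

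Of the olfactomedin domain genes, Myoc's family, 6 of 8 tested rose from P13 to P21, beside 36.0% of all genes. None fell in limma (0 at an unadjusted p below 0.05), beside 7.04% of all genes. The median was 0.70, and 3 rose with median-of-ratios scaling. Olfml3, a secreted member, went from 0.907 to 5.52 ± 1.37 FPKM (1.75, adjusted p = 6.31e-06) and to 10.9 ± 3.84 at P33 (0.84, adjusted p = 1.31e-02, lost without the first or the second P21 library). Olfm2 rose by 1.11 (adjusted p = 4.38e-04) and Olfml2b by 0.99 (adjusted p = 1.89e-03) at the earlier step. Olfml1 fell at the later step, from 32.2 to 20.7 FPKM (-0.62, adjusted p = 4.50e-03), and without the third P33 library 2 genes fell. Of all genes 2.87% rose and 7.17% fell at this step. Against adipocytes 3 were higher and 3 lower at P33 (4 and 1 with median-of-ratios scaling), beside 24.0% and 44.5% of all genes. Olfml3 stood at 2.64 (adjusted p = 9.21e-09), Olfml2b at 1.99 (adjusted p = 7.33e-07) and Olfm1 at -3.0 (adjusted p = 4.76e-09).

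Glucocorticoids induce Myoc in the eye, and a list of 20 genes was read beside it. The list held genes that glucocorticoids commonly induce and Nr3c1, the gene of their receptor. From P8 to P10, where Myoc differed by -1.10, 6 of 19 tested genes rose, beside 1.9% of all genes. None fell (0 at an unadjusted p below 0.05 in limma), beside 9.14% of all genes. The median was 0.15, and with median-of-ratios scaling 7 rose and 0 fell. Of 19 tested, 10 rose and 4 fell from P13 to P21 (7 and 5 with median-of-ratios scaling), beside 36.0% and 7.04% of all genes. The median was 0.39. Sult1a1, a sulfotransferase gene, went from 0.583 to 13.2 FPKM (3.12, adjusted p = 6.08e-09) and Zbtb16, a transcription factor gene, from 0.297 to 3.34 (1.74, adjusted p = 6.04e-09). Dusp1, a phosphatase that is also a general early response gene, fell from 615 ± 32.5 to 16.7 ± 7.02 FPKM (-5.19, adjusted p = 1.34e-10) across the change of isolation.

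From P21 to P33, where the Myoc mean was 8.45 times as high, 1 of the 19 rose and 3 fell, beside 2.87% and 7.17% of all genes. The median was -0.21. Mt1, a metallothionein, rose from 18.8 to 75.1 ± 35.5 FPKM (1.89, adjusted p = 8.34e-04), while Angptl4 (-1.14, adjusted p = 1.08e-04) and Dusp1 (-0.99, adjusted p = 6.59e-03) fell. Without the third P21 library 3 rose and without the second P33 library 2 rose. Against adipocytes 3 were higher and 11 lower at P33 (5 and 7 with median-of-ratios scaling), beside 24.0% and 44.5% of all genes. The lower genes were led by Angptl4 (-6.79, adjusted p = 2.56e-15), Dusp1 (-5.46, adjusted p = 3.00e-12) and Pdk4 (-5.32, adjusted p = 1.62e-11).

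The vacuolar proton pump, which acid-secreting cells use, was read beside Tmem213. Of 22 tested subunit genes 13 rose from P13 to P21, beside 36.0% of all genes. None fell in limma (0 at an unadjusted p below 0.05), beside 7.04% of all genes. The median was 0.46, and 4 rose with median-of-ratios scaling. Atp6v0e went from 221 ± 25.1 to 596 ± 97.1 FPKM (1.42, adjusted p = 4.86e-06), Atp6v1c2 rose by 1.31 (adjusted p = 9.25e-06) and Atp6v1f by 1.02 (adjusted p = 4.51e-04). From P21 to P33, when Tmem213 differed most, only Atp6v0a4, a subunit of kidney acid-secreting cells, rose, from 1.87 ± 1.22 to 4.87 ± 1.0 FPKM (1.09, adjusted p = 5.81e-03; not called with 0.1 FPKM added). Without the third P33 library 2 rose. Atp6v1c2 (-0.88, adjusted p = 1.71e-03), Atp6v1g1 (-0.80, adjusted p = 2.53e-04) and Atp6v1e1 (-0.40, adjusted p = 2.80e-02) fell, the last a call that leaving out any of 4 single libraries ended. Of all genes 2.87% rose and 7.17% fell at this step. Against adipocytes 5 were higher and 13 lower at P33 (5 and 10 with median-of-ratios scaling), beside 24.0% and 44.5% of all genes. Atp6v0a4 stood at 4.87 FPKM against 0.00667 (2.53, adjusted p = 8.35e-08), Atp6v1b2 at -2.34 (adjusted p = 8.70e-11) and Atp6v0a1 at -2.11 (adjusted p = 1.16e-07).

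**Figure D3:**
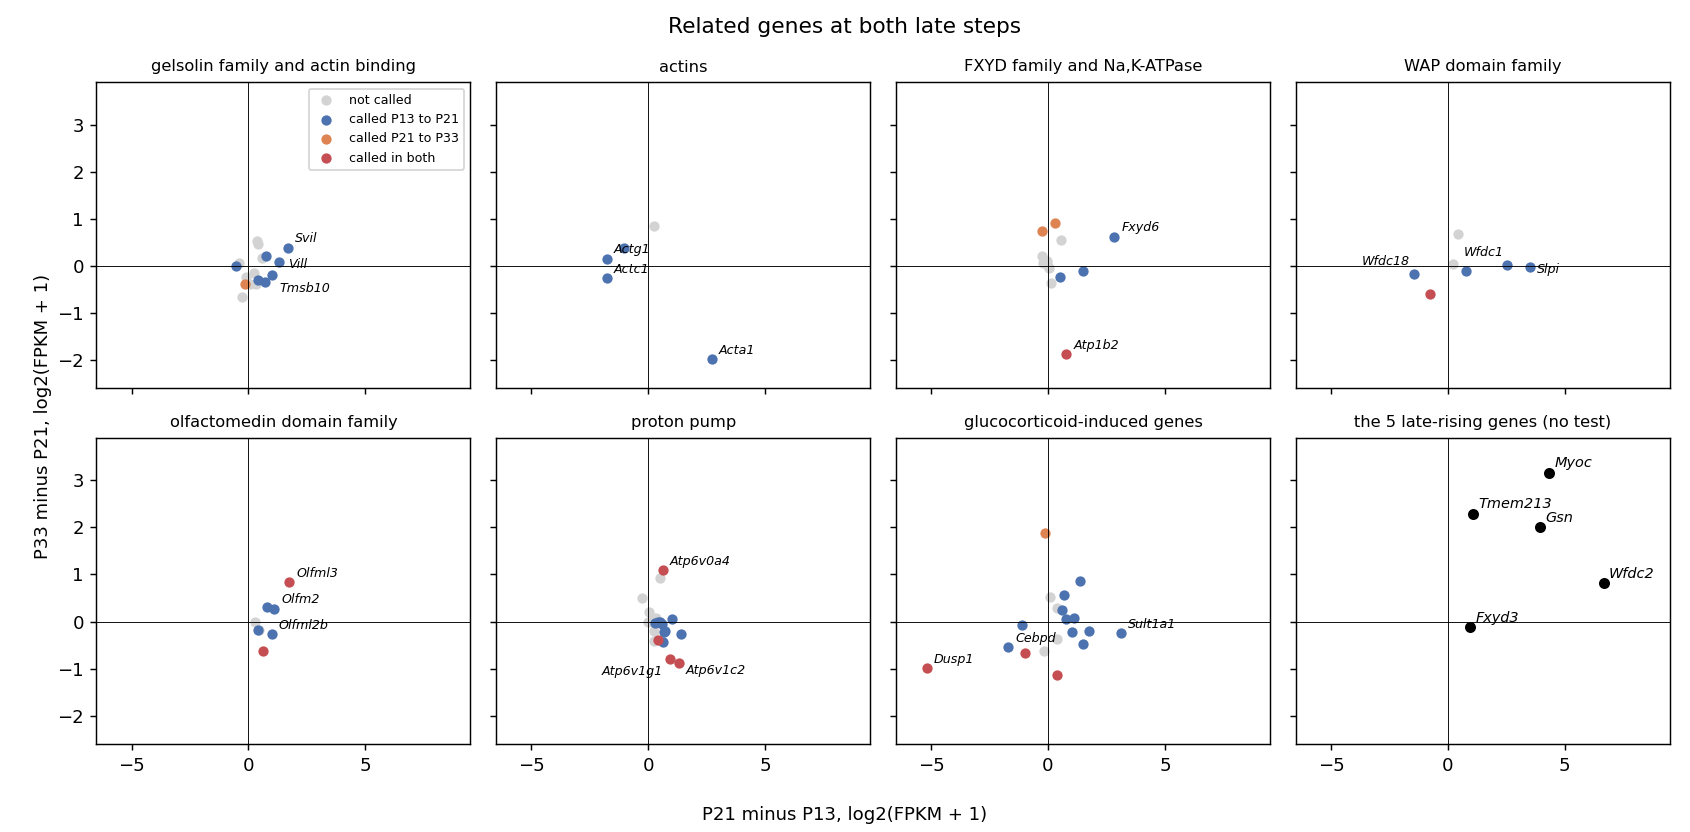
Each point is a tested gene of a list, with its P13 to P21 difference on the horizontal axis and its P21 to P33 difference on the vertical axis, both on the log2(FPKM + 1) scale and coloured by the step in which it passed the test; the last panel shows the 5 chosen genes, untested. Fxyd6 (2.83) and Slpi (3.52) stand far to the right at the first step, and at the second step Mt1 (1.89) is the highest and Acta1 the lowest point of the 7 lists.

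Wfdc2 and Fxyd3 are best known from epithelia. The summed FPKM of 20 genes of simple and glandular epithelium was 9.24 to 18 in the sorted libraries, 34.6 to 49.0 at P21 and 20.9 to 32.6 at P33, of which Krt8, a keratin, made up 32.3 FPKM on average at P21 and 21.0 at P33. Of those 20 genes 7 were tested, with 5 higher and 1 lower at P21 than at P13, beside 36.0% and 7.04% of all genes. None was higher at P33 than at P21 (0 at an unadjusted p below 0.05 in limma) and 2 were lower, beside 2.87% and 7.17%. Of these 2, 1 was left without the second or the third P21 library or the first P33 library. Epcam averaged 0.10 FPKM at P21 and 0.110 at P33, Cdh1 0.0133 and 0, and Cldn4, Spint1 and Foxi1 were listed at 0 in all libraries of both stages. Of the 20 genes 7 were at 0 in all P21 libraries and 6 in all P33 libraries. Those that rose from P13 to P21 were Ehf (1.88, adjusted p = 3.97e-10), Krt8 (1.22, 5.29e-05), Spint2 (1.2, 8.88e-04), Prom1 (0.86, 3.57e-04) and Krt7 (0.32, 2.09e-02, a call lost in 5 of 12 alternatives), and Elf3 fell (-0.67, 3.79e-03). Ehf, an epithelial transcription factor, went from 0.0733 to 2.94 FPKM and averaged 0.95 at P33. The part of epithelial RNA in the levels of Wfdc2 and Fxyd3 was not tested. The 12 keratinocyte genes summed to 4.48 to 8.01 FPKM up to P21 and 11.3 to 16 at P33, and the 8 sebocyte genes to 5.88 to 11.8 in the sorted libraries and 21.6 to 33.6 at P21 and P33.

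Fibroblast and perichondrium genes were read beside the members. The summed FPKM of 14 such genes was 3920 to 5370 at P8, 7430 to 9600 at P10 and 2480 to 3270 at P13. It was 6760, 10200 and 12800 in the 3 P21 libraries and 9490, 8970 and 16300 at P33, with 627 to 632 in adipocytes. At P21 the order of the sums over the libraries was that of Myoc and of Wfdc2, and at P33 it was that of neither. The third P33 library had the highest sum, the highest Wfdc2 (3511 FPKM) and the lowest Fxyd3 (2659 FPKM). Myoc was highest in the second P33 library (1574 FPKM), which had the lowest sum. The P10 libraries, which were sorted, had sums above that of the first P21 library, which was made from floating cells, with Wfdc2 at 5.86 to 6.95 FPKM against 523. The part of fibroblast RNA in the levels of the members was not tested. Of the 14, 8 rose and 2 fell from P13 to P21 (8 and 4 with median-of-ratios scaling), beside 36.0% and 7.04% of all genes. From P21 to P33, 3 rose and 4 fell, beside 2.87% and 7.17%.

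Skeletal muscle genes rose at P21. All 10 tested of 13 were called higher than at P13, beside 36.0% of all genes, with a median of 2.43, and 9 with median-of-ratios scaling. The 12 other than Acta1 summed to 180.0, 50.9 and 307 FPKM at P21 and 18.3, 37.1 and 158 at P33. At the later step none was called higher (0 at an unadjusted p below 0.05 in limma) and 1 lower, beside 2.87% and 7.17% of all genes. It was 7 lower without the second P21 library, 9 without the third P33 library and 0 without the first or the third P21 or the first P33 library. Without the first P33 library 1 was higher.

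The 12 macrophage genes summed to 2.88 to 6.60 FPKM in the sorted libraries, 19.6 to 31.6 at P21 and 36.8 to 67.6 at P33. Of 11 tested, 6 were called higher at the later step, beside 2.87% of all genes, and 3 without the first P21 library. Endothelial genes summed to 3.4 to 16.2 FPKM in all lipochondrocyte libraries, smooth muscle and pericyte genes to 57.7 to 138, and Schwann cell genes to 445 to 681. Beyond the values given here, the part of other cells in the levels of the 5 genes was not tested.

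**Figure D4:**
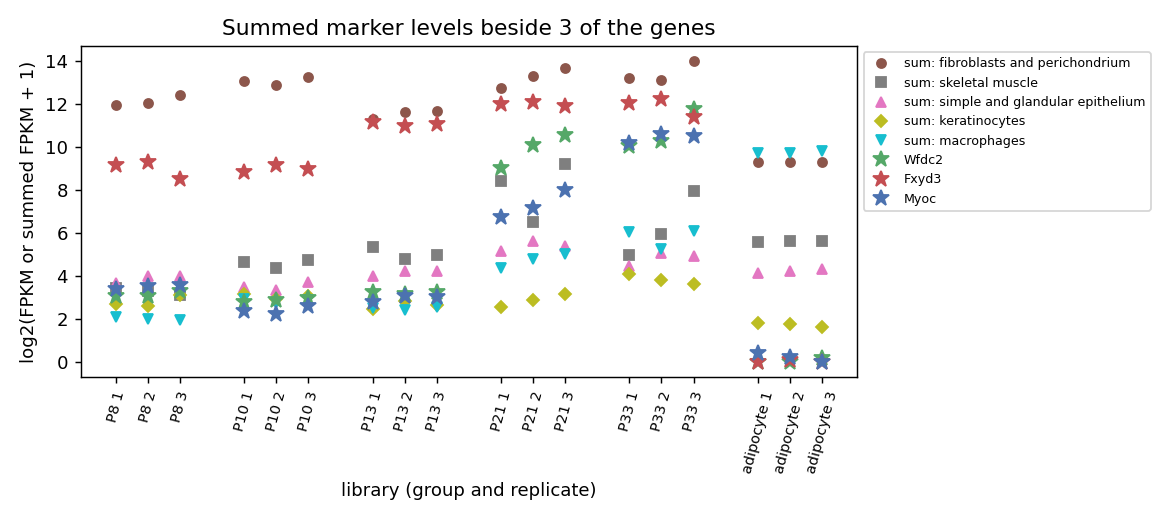
Each library's summed FPKM of 5 marker lists (round, square, triangle and diamond symbols) beside the FPKM of Wfdc2, Fxyd3 and Myoc (stars), all as log2(value + 1). The fibroblast sum is 7430 to 9600 FPKM at P10 and 6760 to 12800 at P21, and the epithelial sum is highest at P21, at 34.6 to 49.0 FPKM.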

How the data were processed

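Bulk RNA-seq of 15 lipochondrocyte and 3 adipocyte libraries was deposited as 1 table of FPKM with 2 decimals, per the file headers. STAR 2.4.2a and mm10 are named in the submitters' processing notes; the quantifier and annotation were not stated in any source used here. The authors also deposited read totals and the percent of reads aligned. FPKM carry no counts, so no interval for counting error is given.

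From the deposited FPKM, log2(FPKM + 1) was computed, and genes with 1 FPKM in at least 3 libraries (13815) entered a limma 3.58.1 trend fit (R 4.3.3) of 6 group means over 18 libraries, tested on simulated data. A call is a Benjamini-Hochberg adjusted p below 0.05 over all genes, two-sided, and SE is the SE of the fit. Same-numbered replicates were not treated as pairs. The members and the gene lists were chosen with earlier results of these data known. The text names the 5 members, the 3 genes nearest to each by r among genes averaging 10 FPKM in a group, up to 3 called genes of each of the 7 related lists with the largest change in P21 against P13, P33 against P21 and P33 against adipocytes, and rank neighbours at P33. Actb at the earlier step and marker genes were named after their values were seen, and some genes that the rule names are not reported here. Alternatives were an added 0.1 FPKM, no filter, median-of-ratios and same-sum scaling, 2 groups modelled alone, a replicate block and each library left out. Promoter sequences are from RefSeq (GRCm38.p6), with all 5 members matched by symbol.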

Additional observations from a re-analysis of the deposited data

Results flagged for a closer look

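Gsn differed from adipocytes in opposite directions at different stages, with every library of a stage on the same side of all adipocyte libraries. The log2 difference from adipocytes was -6.20 at P8, -5.99 at P10, -5.31 at P13, -1.35 at P21 and 0.66 at P33. The difference between stages was not tested in this contrast, since the later levels of Gsn chose it, and all 5 values share the same 3 adipocyte libraries. At P8, P10 and P13 age and isolation also differ from those of the adipocytes, and at P21 age does. The direction at each stage was the same with median-of-ratios and same-sum scaling, where the P33 value was 1.06 and 0.49.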

How the results depend on the processing

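The 10 late differences of the 5 members, from P13 to P21 and from P21 to P33, moved by less than the spread between replicates under most alternatives. The exceptions were Gsn from P13 to P21 (3.53 with median-of-ratios scaling), Fxyd3 at that step (0.51 with median-of-ratios and 0.73 with same-sum scaling) and Tmem213 with 0.1 FPKM added (2.03 and 2.74). Myoc at P10 against P8 passed under all alternatives except 0.1 FPKM added (-1.25) and median-of-ratios scaling (-0.83). Differences near 0 between P10 and P8 turned: Wfdc2 to 0.02 with median-of-ratios and Fxyd3 to -0.01 with same-sum scaling. With each library left out in turn, Fxyd3 ran from -0.22 to 0.17. Tmem213 lay near 0 FPKM in P8, P10 and adipocytes, so nothing is read from its values among them: -0.26 to 0.01 between P10 and P8 and 0.00 to 0.27 at P10 against adipocytes with a library left out, and at P8 against adipocytes 1.52 with 0.1 FPKM added and 0.26 with the 2 groups alone. The causes were not tested.

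The genes called between P10 and P8, 1525 in all, were 636 with median-of-ratios scaling, 985 with no filter, 351 with the 2 groups alone (161 higher, 190 lower) and 520 to 1493 with a library left out. The 4 libraries that moved that count by over 1.5 times were the second and the third of P8 and the first and second of P10. The 1388 called between P33 and P21 were 126 with the 2 groups alone (28 higher, 98 lower), 906 without the second P21 library and up to 1802 without another, and 262 rather than 397 were higher with 0.1 FPKM added. With no filter, 746 rather than 1263 genes were lower at P10 than at P8. Same-numbered libraries deviated from their group means with r from -0.168 to 0.306 over 45 pairs, so the numbers were not taken as a pairing. With a replicate block the counts were 1809 for P10 against P8 and 1546 for P33 against P21, and no call of a member changed. FPKM give no depth per gene, so values of Tmem213 below 1 FPKM carry no counting interval.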
